A study of Drosophila melanogaster with 3 samples.

Results

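Oxidative phosphorylation subunit genes were examined for occupancy by Zif (CG10267), a C2H2 zinc finger protein of Drosophila melanogaster, at their promoters. The members were the nuclear protein-coding genes of the Ensembl models whose symbol starts with ND-, COX, ATPsyn, UQCR- or Sdh, which gave 88 of 13945 protein-coding genes. They fell into 63 main subunit genes, 24 paralogs (symbols ending in L, or in L and a digit, after the name of a main subunit) and Sdhaf3, an assembly factor. Occupancy came from chromatin immunoprecipitation and sequencing (ChIP-seq) with an anti-GFP antibody. All libraries were of whole mixed-sex embryos aged 0 to 24 h from 1 transgenic line that expresses Zif with GFP at its C-terminal end. The 3 biological replicates formed 1 group with no second genotype, treatment or stage, so no contrast and no test between conditions was possible. The labels do not give the promoter that drives the transgene or whether untagged Zif was also present, and embryos of all these ages and all tissues were mixed.

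Oxidative phosphorylation takes place in the inner mitochondrial membrane. Complexes I (NADH dehydrogenase) and II (succinate dehydrogenase) pass electrons to ubiquinone, complex III passes them to cytochrome c, and complex IV passes them to oxygen. Complexes I, III and IV pump protons, and ATP synthase uses the proton gradient to make ATP. Most subunits are encoded in the nucleus, and several of their genes have duplicates in flies, many of which are known for expression in the testis.

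A summit is the position of highest enrichment in a peak, and a gene was called bound when at least 1 of its annotated transcription start sites (TSSs) had a summit no farther than 500 bp away. Deposited lists of 2 kinds were used, a set of 8630 summits kept by the irreproducible discovery rate (IDR set) and relaxed lists of 30000 summits each for the replicates and for pooled reads. The signal is the value given to each peak in the deposited lists, and it spanned 203.9 to 8172 in the IDR set with a median of 405. Its scale is that of a peak caller that is not named. The relative signal of a peak in a replicate is its signal divided by that replicate's median over the IDR set (202 in replicate 1, 105 in replicate 2 and 142 in replicate 3).

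Stretches of the genome (dm6) show what lay under some of the member peaks. The first 5 are 101 bases centred on an IDR summit, and the last 2 are the 101 bases before the TSS of a paralog with no IDR summit. All read 5′ to 3′ on the strand of the gene, and capitals mark the letters AGTGTTG or CAACACT (a word frequent under strong peaks), the E-box CAGCTG, the DRE TATCGATA and motif 1 GGTCACAC. COX5B (chr2L:6557543-6557643, plus strand) and ATPsynB (chr3L:9729923-9730023, plus strand) had the strongest member peaks and hold the word. ND-51 (chr2L:6062788-6062888, minus strand) holds an E-box, ND-B14.5A (chrX:2172454-2172554, plus strand) a DRE and an E-box, and COX4 (chr2L:19958592-19958692, plus strand) a DRE and motif 1. The paralogs COX5BL (chr2L:6559330-6559430, plus strand) and ND-24L (chr3L:17320812-17320912, minus strand) hold none of them. The stretches shown do not stand for all members. Many other summit windows of 101 bases hold no marked letters, among them those of ND-24, ND-42, ND-13B and COX6B. From 250 bp upstream to 50 bp downstream of the TSS, 2 paralogs held an E-box, 1 held motif 1 and 1 held the word.
COX5B: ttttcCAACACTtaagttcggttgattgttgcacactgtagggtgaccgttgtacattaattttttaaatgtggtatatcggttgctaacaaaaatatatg
ATPsynB: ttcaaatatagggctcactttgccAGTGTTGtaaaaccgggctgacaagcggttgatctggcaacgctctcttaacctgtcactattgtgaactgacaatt
ND-51: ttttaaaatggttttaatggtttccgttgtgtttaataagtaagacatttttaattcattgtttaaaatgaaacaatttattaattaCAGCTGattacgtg
ND-B14.5A: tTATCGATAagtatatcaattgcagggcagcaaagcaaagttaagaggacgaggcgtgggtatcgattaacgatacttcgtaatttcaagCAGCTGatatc
COX4: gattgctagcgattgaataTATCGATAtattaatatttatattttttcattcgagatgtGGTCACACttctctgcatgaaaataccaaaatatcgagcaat
COX5BL: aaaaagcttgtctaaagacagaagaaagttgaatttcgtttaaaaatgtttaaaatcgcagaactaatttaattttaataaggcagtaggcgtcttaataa
ND-24L: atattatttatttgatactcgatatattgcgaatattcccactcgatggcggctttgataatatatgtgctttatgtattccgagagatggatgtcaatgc

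Main subunit genes of every complex carried Zif at their promoters, while their paralogs seldom did. In the IDR set 51 of the 63 main subunit genes were bound (81.0%, exact binomial interval 69.1 to 89.8), and 1 of the 24 paralogs (4.17%, 0.105 to 21.1). Sdhaf3 was bound too, which made 53 of 88 members (60.2%, 49.2 to 70.5). Among all protein-coding genes 5723 of 13945 were bound (41.0%). The main subunits thus lay above that share and the paralogs below it, with intervals that do not overlap, although the intervals cover counting error only. No set test was run, since the genes were chosen with earlier results known.

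The order held in each replicate when its own 8630 strongest summits were used. Main subunit genes were bound at 79.4% in replicate 1, 90.5% in replicate 2 and 74.6% in replicate 3 (81.5% ± 8.15, SD, n = 3). For paralogs the shares were 0, 4.17 and 4.17% in replicates 1, 2 and 3 (2.78% ± 2.41, SD, n = 3). All protein-coding genes had 39.6% in replicate 1, 43.7% in replicate 2 and 37.8% in replicate 3 (40.3% ± 3.03, SD, n = 3). Replicate 2 gave the highest share of main subunits and of all genes.

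The 5 complexes had similar shares of bound main subunits. Complex I had 26 of 34 (76.5%, 58.8 to 89.3), complex II 4 of 4 (39.8 to 100%), complex III 5 of 6 (83.3%, 35.9 to 99.6), complex IV 7 of 8 (87.5%, 47.3 to 99.7) and ATP synthase 9 of 11 (81.8%, 48.2 to 97.7). These intervals overlap one another. Genes were placed in complexes by hand from their symbols. ND-MLRQ was counted in complex I, although its mammalian counterpart is assigned to complex IV; moved there, it gave 25 of 33 in complex I and 8 of 9 in complex IV. Of the paralogs, none of 6 in complex I, of 3 in complex II, of 3 in complex III and of 4 in ATP synthase was bound, against 1 of 8 in complex IV.

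**Figure D1:**
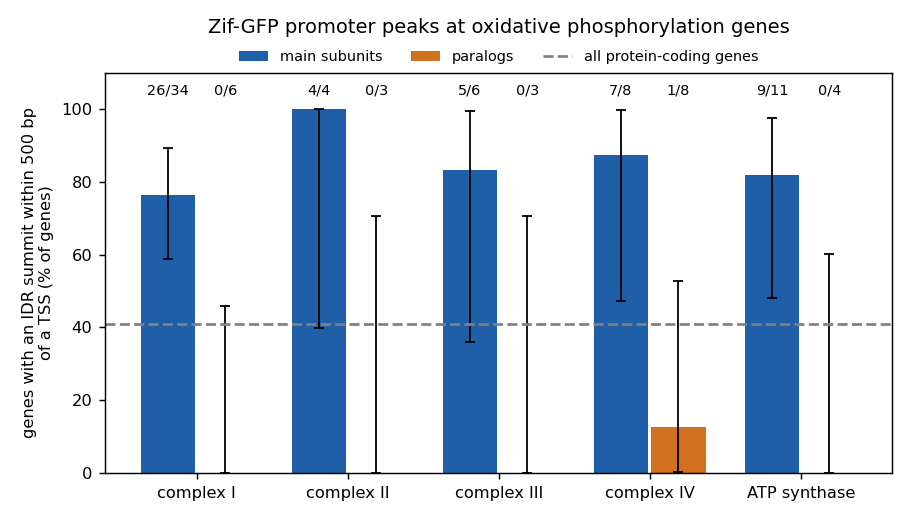
Share of bound genes in the IDR set (y axis, percent of genes) for each complex (x axis), main subunits in blue and paralogs in orange; error bars are exact binomial 95% intervals, numbers give bound genes over all genes, and the dashed line is the 41.0% of all protein-coding genes. Main subunits stand between 76.5 and 100% in all 5 complexes, and the paralogs of 4 complexes stand at 0.

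Complex I, the largest complex, takes electrons from NADH. Its strongest promoter peak was at ND-24, a core iron-sulphur subunit of the NADH-oxidising module, with a signal of 3119 and relative signals of 6.54, 10.04 and 5.42 in replicates 1, 2 and 3. The summit lay 103 bp downstream of a TSS, in an intron of ND-24, within 500 bp of the TSS of corolla on the opposite strand. ND-42, an accessory subunit, had a signal of 2755 and relative signals of 5.06, 9.06 and 5.76, in a promoter shared with Cchl, the enzyme that attaches haem to cytochrome c. The accessory subunits ND-13B, ND-15 and ND-B18 followed with signals of 2640, 2150 and 2065. Relative signals were 5.61, 8.31 and 4.61 at ND-13B, which had no TSS of another protein-coding gene near its summit. They were 4.38, 7.39 and 3.48 at ND-15, which shares its promoter with Pus10, and 3.70, 7.05 and 4.22 at ND-B18, which shares it with hiw. All 5 were several times the replicate's median in every replicate, and replicate 2 was the highest at each. The other 21 bound complex I genes had signals of 209.6 to 1768.

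Complex II oxidises succinate, and all 4 of its genes were bound. SdhD, a membrane anchor, had a signal of 1669 and relative signals of 3.34, 5.68 and 2.96, with its summit 6 bp inside the gene. SdhB, the iron-sulphur subunit, had a signal of 894 (relative signals 1.77, 3.23 and 1.56). SdhC, the second membrane anchor, had 727 (1.32, 2.00 and 1.81), 247 bp upstream of its TSS towards Tctp. SdhA, the flavoprotein that binds succinate, was the weakest at 294 (0.719, 0.999 and 0.396), below the median of the IDR set in each replicate. The order SdhD first and SdhA last held in each replicate, while SdhB and SdhC overlapped. Sdhaf3, which helps the maturation of SdhB, had a signal of 1348 (2.48, 4.90 and 2.44), above SdhB in every replicate.

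The complex III genes ox (signal 2649) and RFeSP (828) have other symbols and were not members. The complex III members had no strong peak. UQCR-14 led with a signal of 614 (relative signals 1.27, 1.80 and 1.24), with a summit 19 bp upstream of its TSS that also fell in the 3′ UTR of the neighbouring CG32576. UQCR-Q followed with 477 (1.17, 1.52 and 0.569), then UQCR-C2 with 445 (0.963, 0.987 and 1.04) and UQCR-C1 with 373 (0.704, 1.30 and 0.768). UQCR-C1 and UQCR-C2 encode the 2 core proteins that face the matrix. Their values and those of UQCR-Q overlapped across replicates, so these 3 cannot be put in order. UQCR-6.4 had a signal of 343 (0.946, 1.12 and 0.147). Its peak was near the median in replicates 1 and 2 and far below it in replicate 3.

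Complex IV, cytochrome c oxidase, held the strongest member peak. COX5B, the zinc-binding matrix subunit, had a signal of 3191, rank 178 of the IDR set, and relative signals of 6.38, 10.3 and 5.79 in replicates 1, 2 and 3. Its summit lay 207 bp upstream of the TSS, within 500 bp of the TSS of IFT52. COX6B, which lies on the intermembrane side, had a signal of 2267 (4.81, 7.54 and 3.73), and COX5A, on the matrix side, had 1083 (2.46, 2.90 and 2.02). COX7B had 613 (1.47, 1.58 and 1.15) and COX4, which spans the membrane, had 562 (1.22, 1.52 and 1.16). COX5B was above COX6B and COX6B above COX5A in each replicate, whereas COX7B and COX4 differed by less than the spread between replicates.

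Among the ATP synthase members, which leave out blw (signal 3310), the strongest peak was at ATPsynB, which encodes a subunit of the peripheral stalk. Its signal was 3141, rank 195, with relative signals of 6.64, 10.3 and 5.25 and a summit 26 bp upstream of the TSS. No TSS of another protein-coding gene lay within 500 bp of that summit. ATPsynE, a membrane subunit at the dimer interface, had a signal of 1862 (3.63, 5.55 and 3.90), in a promoter shared with Afti. ATPsynO, the stalk subunit at the top of the catalytic head, had 700.0 (1.61, 2.10 and 1.09), ATPsynF had 575 (1.17, 1.68 and 1.03) and ATPsynC, the subunit of the rotor ring, had 560 (1.03, 1.81 and 1.22). ATPsynbeta, the catalytic subunit, was named after its value was seen: it had only 254 (0.429, 0.766 and 0.605), below the median in every replicate.

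**Figure D2:**
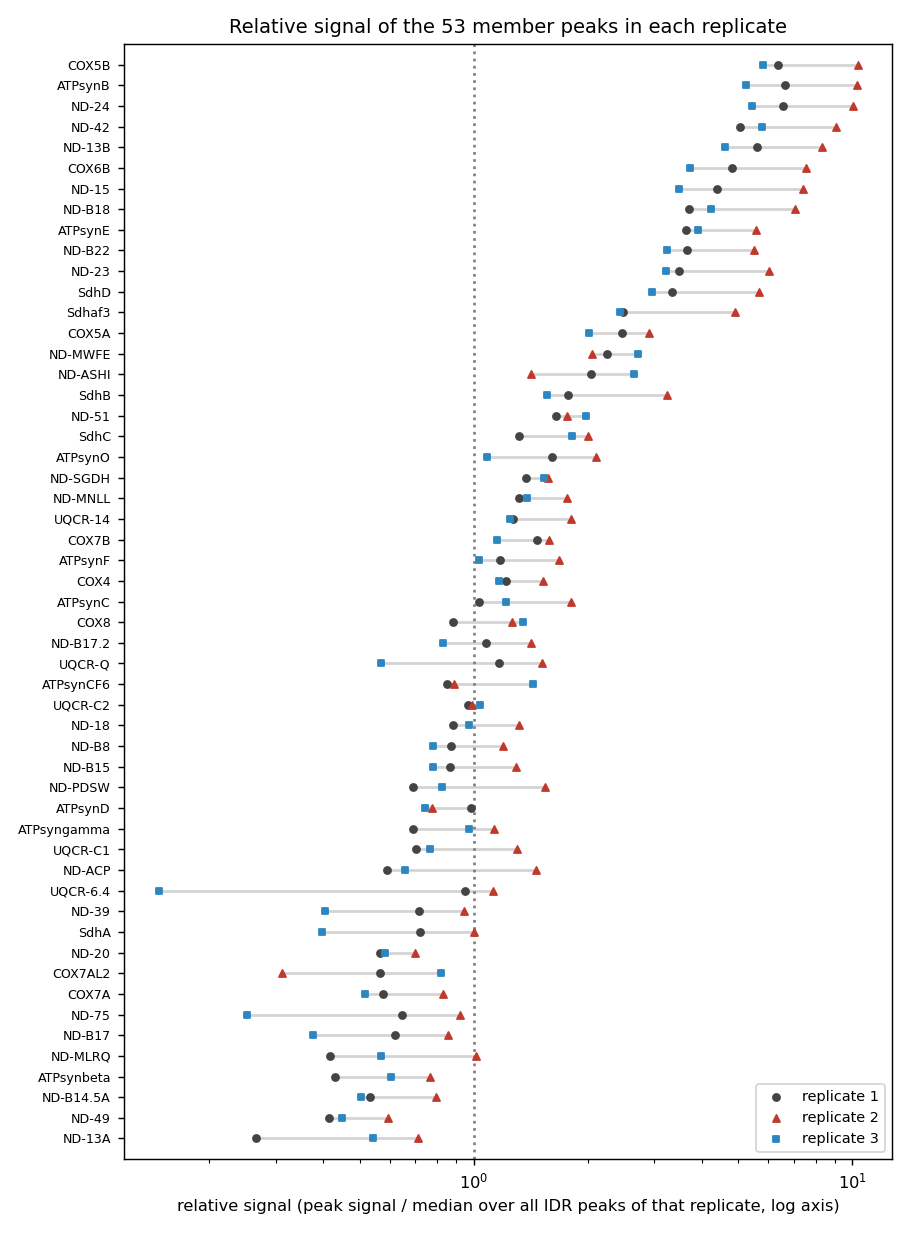
Relative signal (x axis, peak signal over the median of the IDR set in the same replicate, log scale) of the 53 bound members (y axis), each with replicates 1, 2 and 3 as separate symbols; the dotted line marks the median. COX5B, ATPsynB and ND-24 reach about 10 in replicate 2, and UQCR-6.4 falls to 0.147 in replicate 3.

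Member peaks covered most of the range of signal in the IDR set. The median signal of the 53 bound members was 560, with a range of 209.6 to 3191, and that of all bound protein-coding genes was 517. The median relative signal was 1.28 ± 0.210 in the members and 1.20 ± 0.184 in all bound genes (SD, n = 3). Both groups were measured in the same 3 libraries, and the members were higher by 0.0586, 0.109 and 0.0682 in replicates 1, 2 and 3 (0.0786 ± 0.0266, SD, n = 3). The difference thus had the same sign in each replicate and was small beside the range among members. Of the members 8 ranked among the 500 strongest summits (15.1%, against 12.1% of all bound genes), 13 among the 1000 strongest (24.5%, against 20.8%) and 18 below rank 4315, the middle of the IDR set (34.0%, against 36.6%). These shares by rank lay near those of all bound genes. Signals were above 1000 at 15 members and below 300 at 11, which were not counted over all bound genes.

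Replicate 2 gave the highest relative signal at 45 of the 53 member peaks (84.9%), replicate 3 at 7 and replicate 1 at 1. Over all bound genes replicate 2 was highest at 68.3%. The median coefficient of variation over replicates was 30.5% in the members and 28.2% in all bound genes. All 53 member peaks overlapped a relaxed peak in each replicate, as did the peaks of 5636 of all 5723 bound genes. ND-ASHI was among the exceptions, with relative signals of 2.04, 1.41 and 2.65 and replicate 2 the lowest, in a promoter shared with Fum1, the fumarase of the tricarboxylic acid cycle. ND-MWFE, which shares a promoter with TppII, likewise had 2.25, 2.05 and 2.71. Both were named after their values were seen.

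The 12 unbound main subunit genes mostly lay just under the IDR limit. Within 500 bp of a TSS, 11 of them had a summit in the relaxed pooled list, with signals of 57.4 to 195.5 and a median of 175, and 8 were above 160. Relaxed summits were present at 11, 12 and 11 of the 12 in replicates 1, 2 and 3. The weakest bound member, ND-13A, had a signal of 209.6, so the weakest bound and the strongest unbound members lay close together.

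For unbound genes the replicate values are those of the strongest relaxed summit near a TSS in that replicate, which need not be the pooled summit. At 8 of the 16 unbound members with a pooled summit, a replicate summit lay over 100 bp from it. ND-30, a core subunit of complex I, was closest to the limit at 195.5, with relative signals of 0.648, 1.10 and 1.02 in replicates 1, 2 and 3. These came from summits 86, 245 and 208 bp from the pooled one, and the pooled signal was 0.497 of their sum, so they do not measure the same summit. COX7C had a pooled signal of 186 (relative signals 0.651, 0.765 and 0.265), ND-B14 183 (0.187, 0.489 and 0.625) and ATPsyndelta 178 (0.405, 0.261 and 0.509). ATPsyndelta belongs to the central stalk of ATP synthase, and ND-B14 is an accessory subunit of complex I. ND-B16.6 had 175 (0.361, 0.493 and 0.273), ATPsynG 175 (0.469, 0.384 and 0.383), ND-19 174 (0.336, 0.538 and 0.393) and ND-B14.5B 168 (0.389, 0.470 and 0.194). These 7 genes after ND-30 were under the median of the IDR set in every replicate.

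The remaining 4 were lower. UQCR-11, the hinge protein of complex III, had a pooled signal of 137 (relative signals 0.324, 0.477 and 0.212), and ND-B14.7 had 124 (0.254, 0.564 and 0.299). ND-AGGG had 57.4, with 0.211 and 0.222 in replicates 1 and 2 and no summit in replicate 3. ND-B12 was the single main subunit gene with no pooled summit, and had weak ones of 0.425 in replicate 2 and 0.266 in replicate 3. ND-B12 and ND-AGGG are both accessory subunits of the membrane arm of complex I.

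**Figure D3:**
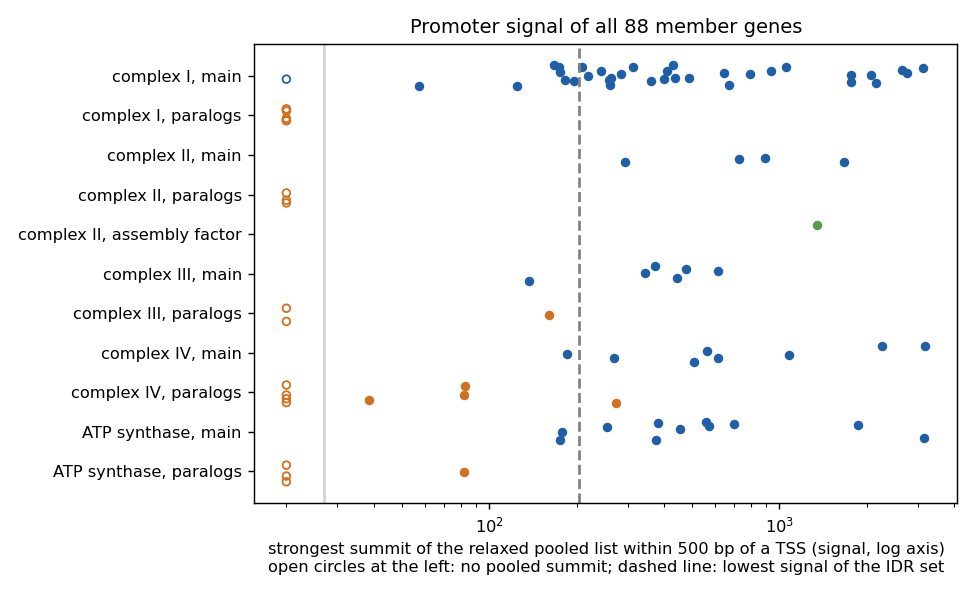
Signal of the strongest summit of the relaxed pooled list within 500 bp of a TSS (x axis, log scale) for each of the 88 members, by complex and class (y axis), with open circles for genes without one and a dashed line at the lowest signal of the IDR set, 203.9. The unbound main subunits include 8 that crowd between 160 and the line, while 18 of the 24 paralogs have no summit.

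With the relaxed pooled list 62 of 63 main subunit genes (98.4%) and 6 of 24 paralogs (25%) had a summit within 500 bp of a TSS, against 7851 of all protein-coding genes (56.3%). Paralogs without a pooled summit numbered 18. They were all 6 of complex I (ND-20L, ND-24L, ND-49L, ND-51L1, ND-51L2 and ND-B14.5AL), all 3 of complex II (SdhAL, SdhBL and SdhCL), UQCR-11L and UQCR-14L of complex III, COX6AL, COX6AL2, COX6CL and COX7CL of complex IV, and ATPsynCF6L, ATPsynGL and ATPsynbetaL of ATP synthase. Among these 18, SdhBL (relative signal 0.157) and UQCR-11L (0.127) had a weak relaxed summit in replicate 2 alone. The lists hold only their 30000 strongest summits, so a missing summit is a signal below the list, not a measured 0.

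The only bound paralog was COX7AL2. Its IDR summit had a signal of 274, rank 6636, and lay 496 bp downstream of a TSS, in its own 5′ UTR, close to the limit of the rule. Relative signals there were 0.564, 0.312 and 0.821 in replicates 1, 2 and 3, below the median in each. In replicate 2 a stronger relaxed summit of 1.26, whose peak did not overlap the IDR peak, lay within 500 bp of a TSS of COX7AL2. No paralog was bound when replicate 1 or replicate 3 was left out of the ranking of pooled summits, or when summits had to lie within 200 bp. Weaker pooled summits were found at UQCR-6.4L (161), COX4L (82.5), COX7AL (82.2), ATPsynepsilonL (81.8) and COX5BL (38.4). Relaxed summits were present at 5, 7 and 5 of the 24 paralogs in replicates 1, 2 and 3.

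Each paralog was set beside its main gene, including levy (complex IV), cype (complex IV) and sun (ATP synthase), which encode subunits under other symbols. The pooled signal was higher at the main gene in 23 of 24 pairs, the exception being COX7A (269) and COX7AL2 (274). Of the 21 main genes 17 were bound in the IDR set. In 17 pairs the genes lay on different chromosome arms, but some were close neighbours. COX5B had a pooled signal of 3191 and COX5BL, with a TSS 1631 bp away, 38.4. COX7A had 269 and COX7AL, 2626 bp away, 82.2, and COX7C had 186 while COX7CL, 867 bp away, had no summit. Among pairs on different arms ND-24 had 3119 and ATPsynCF6 454, and neither ND-24L nor ATPsynCF6L had a summit.

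Main subunit genes also differ from their paralogs in how their promoters are arranged. Main genes had a median of 2 annotated TSSs and paralogs of 1, and 49.2% of main genes but 87.5% of paralogs had 1, against 73.5% of all protein-coding genes. A gene with more TSSs covers more sequence within 500 bp of one. When the most upstream TSS alone was used, 49 main genes (77.8%) and 1 paralog (4.17%) were bound, against 39.0% of all protein-coding genes. A protein-coding TSS of another gene lay within 500 bp of a TSS of 33 of 51 bound main genes (64.7%), 5 of 12 unbound main genes (41.7%) and 3 of 24 paralogs (12.5%), against 30.9% of all protein-coding genes.

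A summit between divergent genes counts for both of them, so the layout of promoters was set beside the bound shares. Main subunit genes with such a neighbour were bound in 33 of 38 cases (86.8%), against 73.0% of all protein-coding genes with one. Main genes without such a neighbour were bound in 18 of 25 cases (72.0%), against 26.7% of all protein-coding genes without one. Main genes were thus above all genes with and without a neighbour. With a neighbour the share of all genes was already 73.0%, which leaves less room for a gap, so the sizes of the gaps cannot be compared. Whether the layout accounts for the bound shares was not tested. The part of other properties of these promoters, such as activity in embryos, was not tested.

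At the 53 member summits themselves, 33 (62.3%) had a TSS of another protein-coding gene within 500 bp and 32 (60.4%) one on the opposite strand, against 57.9% and 55.5% over all bound genes. Which of the genes such a peak belongs to cannot be told apart. Besides the pairs above, partners included spn-E at ND-23, glo at COX5A, mRpL55 at ATPsynD, msl-2 at ND-PDSW, VhaM9.7-b at COX8 and CycC at UQCR-C1. At 20 member summits no other protein-coding TSS was near, among them those of ATPsynB, ND-13B, SdhD, SdhB and COX4.

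Member summits lay closer to the nearest annotated TSS of their gene than the summits of all bound genes did. More annotated TSSs can shorten this distance, and 49.2% of main genes but 73.5% of all protein-coding genes had 1. The part of the number of TSSs was not tested. The median position was 62 bp upstream (interquartile range −111 to −19) in the members and 111 bp upstream (−191 to −44) in all bound protein-coding genes. Within 100 bp of the TSS lay 35 of 53 member summits (66.0%), against 44.1% of all bound genes. At or upstream of the TSS lay 46 (86.8%), against 90.6%. By annotation 32 summits fell between genes, 13 in a 5′ UTR, 5 in an intron, 1 in a coding exon (ATPsynbeta), 1 in a 3′ UTR (UQCR-14) and 1 in a noncoding exon (ND-MLRQ, over mir-4942).

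**Figure D4:**
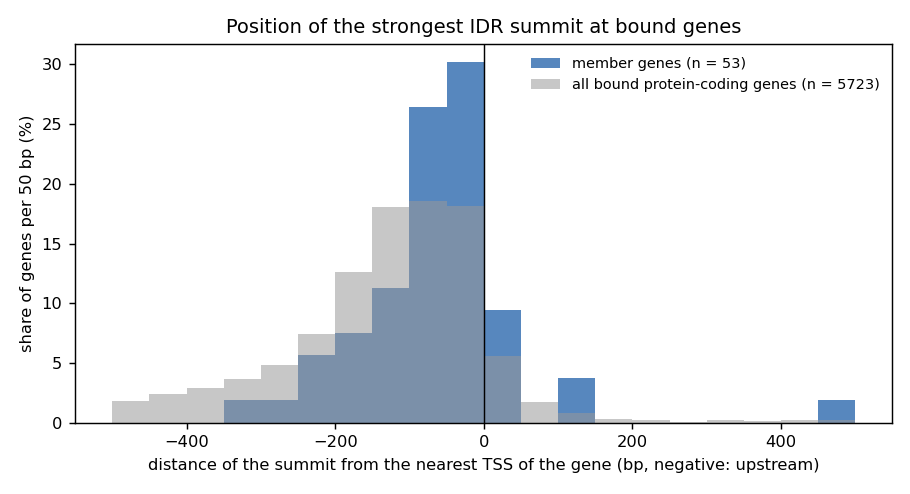
Distance of the strongest IDR summit from the nearest TSS of its gene (x axis, bp, negative upstream) as the share of genes per 50 bp (y axis) for the 53 bound members in blue and 5723 bound protein-coding genes in grey. The members peak just upstream of the TSS, with a median of −62 bp, and the summit near 500 bp downstream is that of COX7AL2.

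Bound main genes were spread over the genome. They numbered 10 of 12 on 2L, 6 of 11 on 2R, 10 of 13 on 3L, 13 of 13 on 3R, 2 of 2 on 4 and 10 of 12 on X. Over all protein-coding genes the bound share was between 37.5% (chromosome 4) and 42.9% (X). The lowest share of main genes was on 2R, where ND-B12, ND-B14, ND-B14.7, ND-19 and COX7C were unbound.

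Short sequence motifs were counted within 100 bp of the summits on both strands, as a description of the letters and not of factors bound there. The E-box CAGCTG was present at 17 of 53 member summits (32.1%), against 13.5% of 5152 promoter summits of the IDR set. Motif 1 (GGTCACAC), a core promoter element, was present at 9 (16.98%), against 9.12%. The DRE (TATCGATA), bound by the factor DREF, was present at 6 (11.3%), against 11.7%, and TATAAA at 22 (41.5%), against 36.04%. The letters GCGCATGC (the core site of NRF-1, or ewg in flies), CCGGAAG (Ets factors) and GAGAGAG (the Trl factor) were at no member summit, against 0.427%, 0.679% and 2.60%. NRF-1 and Ets factors are known in mammals for sites in promoters of respiratory genes.

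In the promoters themselves (250 bp upstream to 50 bp downstream of the TSS), the E-box was held by 21 of 88 members (23.9%), against 17.7% of all protein-coding genes. These were 17 bound main genes, 2 unbound main genes and 2 paralogs. Motif 1 was held by 16 members (18.2%), against 7.71%, namely 14 bound main genes, 1 unbound main gene and 1 paralog. DRE was held by 9 (10.2%), against 9.37%, of which 8 were bound main genes and none a paralog.

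The strongest peaks of the IDR set that lie at no member shared a 7-letter word, AGTGTTG (read as CAACACT on the other strand), which was chosen after the data were seen. It was within 100 bp of 348 of 987 such summits of rank 1 to 1000 (35.3%) and of 176 of 4297 below rank 4315 (4.10%). At the members, which played no part in its choice, it was present at 10 of 53 summits (18.9%), against 11.2% of all promoter summits. By rank it was at 6 of 13 member summits among the 1000 strongest, 2 of 22 of rank 1001 to 4315 and 2 of 18 below. Other promoter summits had it at 40.9%, 6.83% and 4.13% in these classes.

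The 10 members with the word were COX5B, ATPsynB, ND-42, COX6B, ND-15, Sdhaf3, COX5A, SdhB, ATPsynD and UQCR-6.4, with a median signal of 1749, against 477 for the 43 without it. The ranges overlapped, 343 to 3191 with the word and 209.6 to 3119 without. ND-24, the third strongest member, has no such word within 100 bp of its summit. For the E-box the medians were 454 with and 561 without, for motif 1 they were 362 with and 613 without, and for DRE 588 with and 507 without. Motif 1 was at none of the 13 strongest member summits, at 3 of the next 22 and at 6 of the 18 weakest, against 5.39%, 8.42% and 10.9% of other promoter summits in these classes of rank.

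**Figure D5:**
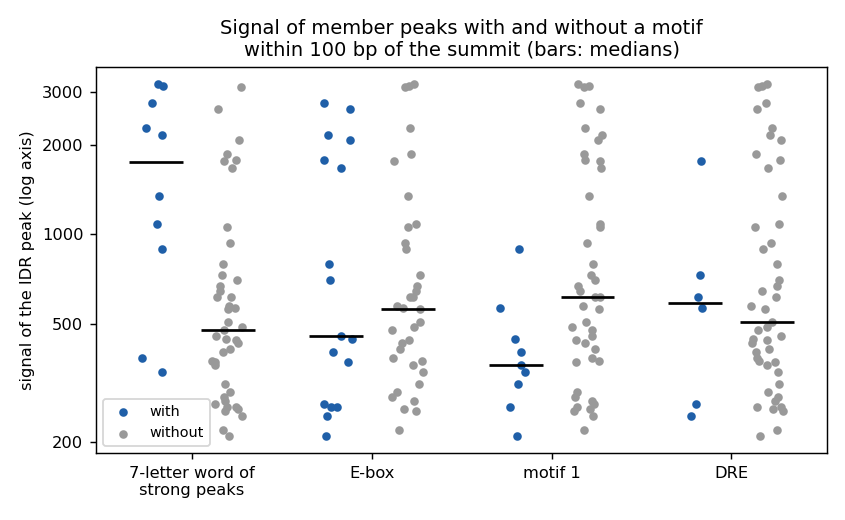
Signal of the 53 member IDR peaks (y axis, log scale), with (blue) and without (grey) each motif within 100 bp of the summit (x axis), bars marking medians. Peaks with the 7-letter word have a median of 1749 and those without it 477, and all 9 peaks with motif 1 are below 1000.

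Genes of the same pathway under other symbols were mostly bound too. Of 9 further subunits and electron carriers 7 were bound, against 41.0% of all protein-coding genes. This list and the next ones are short. In the relaxed pooled list all of their genes had a summit, against 56.3% of all protein-coding genes. The strongest were blw, the alpha subunit of ATP synthase (signal 3310, relative signals 6.05, 11.04 and 6.57), and ox, a complex III subunit (2649, with 5.58, 8.91 and 4.35). The Rieske protein gene RFeSP of complex III had 828, levy 643 and cype 471. Cyt-c-d and Cyt-c-p, the cytochrome c genes, had 1608 and 454, and Cyt-c-d was higher in each replicate. Their symbols do not end in L, so this pair was not in the comparison of paralogs with main genes. The summit at Cyt-c-d lay 364 bp downstream of a TSS, within 500 bp of a TSS of CG31808. Cyt-c1 (112) and sun (130) were unbound, with pooled relaxed summits only.

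Of 6 assembly genes 5 were bound (Coa7 1677, CIA30 1646, Surf1 363, sicily 313 and Bcs1 229), and Scox (170) was not. Of 7 nuclear regulators of mitochondrial genes 6 were bound, from mtTFB2, a mitochondrial transcription factor (1505), to srl, the fly PGC-1 (271). TFAM, which packages mitochondrial DNA, had 190.3 and was unbound. Of 10 tricarboxylic acid cycle genes 9 were bound, the strongest being mAcon1 (aconitase, 3257) and Idh3b (isocitrate dehydrogenase, 2923), and ScsbetaG was unbound at 202, just under the limit. Main oxidative phosphorylation subunits (81.0%) were bound at a share near that of mitochondrial ribosomal protein genes (83.6% of 73) and cytosolic ribosomal protein genes (90.2% of 92), all above the 41.0% of all genes. Intervals were 69.1 to 89.8 for the main subunits, 73.0 to 91.2 for the mitochondrial and 82.2 to 95.4 for the cytosolic ribosomal protein genes, which overlap.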

How the data were processed

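Sonicated fragments measured 200 to 800 bp, per the labels. The files deposited by the authors list peaks on dm6 with a signal and a −log10 q value. The −log10 q value was 4.41 at every IDR summit, so signal was used. No source used here names the aligner, the peak caller, their versions or the IDR threshold, and the lists hold no read counts, so depth is unknown. Per the labels' notes the pooled list joins replicates 2 and 3, but at 7312 IDR peaks alone in their interval the pooled signal over the sum of all 3 replicates had a median of 0.992 (over replicates 2 and 3, 1.83). No replicate was therefore taken as independent of the pooled list.

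Gene models were Ensembl release 115, and bases came from the RefSeq assembly Release 6 plus ISO1 MT, whose chromosome lengths hold all peaks and genes. The strongest summit within 500 bp of a TSS stood for a gene. Replicate signals at IDR peaks came from the strongest relaxed peak overlapping by at least 1 bp, and at genes without an IDR summit from the strongest relaxed summit within 500 bp of a TSS. Binomial intervals were exact (95%, by Clopper-Pearson), for counting error alone. Genes were named by a rule that took, in each complex, the 5 bound main subunits of highest signal, all unbound main subunits, all paralogs and members that are neither; other members named were chosen after their values were seen. Members, lists and motifs were chosen with earlier results of these data known. A further motif, whose letters could not be checked, is not reported. ND-MNLL, whose L belongs to the subunit name, was counted as a main subunit. Scripts were tested on simulated data and used Python 3.11.15, numpy 2.4.6, pandas 2.3.3, scipy 1.17.1 and matplotlib 3.10.9. Alternatives were TSS distances of 200 and 1000 bp, the most upstream TSS, the IDR summits above the middle rank, the relaxed pooled list and motif windows of 100 bp. A further alternative left each replicate out of a ranking of the pooled summits.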

Additional observations from a re-analysis of the deposited data

How the results depend on the processing

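With the IDR summits above the middle rank (4315) alone, 35 of 88 members, 16 complex I main genes, 3 complex III main genes and 0 paralogs were bound, the median signal of bound members was 793 and the median relative signal 1.82. With all relaxed pooled summits 6 paralogs were bound and these medians were 410 and 0.985. Paralogs bound numbered 0 at 200 bp and 3 at 1000 bp, where SdhBL and UQCR-6.4L joined. Leaving out 1 replicate at a time ranked the pooled summits by the relative signals of the others. Positions and signals stayed those of the pooled list. This gave 0 to 1 bound paralogs, 40 to 50 bound main genes and a median signal of 562 to 658. Pooled signals came near the sum of all 3 replicates, so this median still holds the replicate left out. Without replicate 2, 12 main genes lost their summit, and 63.5% of main genes and 33.5% of all genes were bound. ND-30 gained a summit whichever replicate was left out, through replicate peaks that overlap its pooled interval. COX7C gained one without replicate 3. In windows of 100 bp the E-box was at 9 members (16.98%, against 7.12% of all promoter summits), motif 1 at 5 (9.43 against 4.50%), TATAAA at 12 (22.6 against 20.6%) and the 7-letter word at 6 (11.3 against 7.45%). The word and the placing of ND-MLRQ in complex IV were alternatives chosen after seeing the data. The share of main genes was above that of all genes under each of these alternatives, from 54.0 against 26.0% with the stronger IDR summits to 98.4 against 56.3% with the relaxed list. No paired analysis was possible because there was 1 group. Unknown depth limits every absent summit, and calls near the limit changed when a replicate was left out of the ranking.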
